A study of Mus musculus with 8 samples.

Results

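The genes described here are 10 components of the bone morphogenetic protein (Bmp) pathway: the ligand genes Bmp2, Bmp4 and Bmp7, the antagonist genes Nog, Bambi and Smad6, and the target genes Id1, Id3, Msx1 and Msx2. They were taken by name from a table of 55421 mouse genes, and all 10 were found. Expression was given as TPM, a level corrected for transcript length and scaled to the same total in every library. RNA with a poly-A tail had been sequenced from mouse embryos at E9.25, at 9 to 11 somites. Posterior pieces held the second pharyngeal arch and the tissue behind it, and anterior pieces held the first arch and the tissue in front of it.

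The posterior mutant group (Gcnf-/-, libraries 159 and 163) was set against the posterior wild-type group (wt, libraries 153 and 156), and the anterior mutant group (Gcnf-/-, libraries 159 and 163) against the anterior wild-type group (wt, libraries 153 and 156). Each of the 4 groups thus had 2 libraries, and "mutant" means homozygous for a Gcnf allele; which exons it lacks was not known here. Gcnf is the product of Nr6a1, a nuclear receptor with no known ligand that represses germ-cell and pluripotency genes. Nr6a1 averaged 137 ± 30 TPM in mutant and 161 ± 5.5 TPM in wild-type posterior pieces, and 221 ± 27 TPM in mutant and 199 ± 7.8 TPM in wild-type anterior pieces (SD, n = 2 each). Neither difference passed the test (limma, Benjamini-Hochberg adjusted p = 0.31 and 0.52), so the level over the whole gene does not check the genotype labels. No label states whether the libraries of a group were separate embryos. The p-values between groups therefore measure the spread between these libraries, which in the wild type may be technical.

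The libraries held 27064114 to 52957994 reads in genes. Both mutant libraries numbered 159 had Xist, the RNA of the inactive X chromosome, at 30.9 and 25.3 TPM, and the other 6 libraries had it at 0.0119 to 0.0749 TPM, so sex was not balanced between genotypes. Levels of the Y-linked gene Ddx3y were 0.0768 and 0.155 TPM for number 159, against 39.4 and 31.0 TPM for number 163, so the mutant libraries of different number held different embryos. The tissue labels were checked with fixed marker lists. The 5 anterior neural markers summed to 5.1 to 5.4 TPM in mutant and 5.1 to 6.0 TPM in wild-type posterior pieces, and to 179 to 199.6 TPM in mutant and 210.4 to 232 TPM in wild-type anterior pieces. The 6 trunk and tail bud markers summed to 493 to 568 TPM in mutant and 841 to 1146 TPM in wild-type posterior pieces, and to 8.6 to 9.9 TPM in mutant and 7.6 to 8.6 TPM in wild-type anterior pieces. Every marker of every list was detected in at least 1 library of each group.

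Bmp ligands are secreted dimers that bring type I and type II receptors together on the cell surface. The receptors phosphorylate Smad1, Smad5 and Smad9, which enter the nucleus with Smad4 and switch on targets such as the Id and Msx genes. Noggin, the product of Nog, binds ligands outside the cell, Bambi is a decoy receptor without a kinase, and Smad6 is an inhibitory Smad; Bambi and Smad6 are themselves induced by the signal. In the embryo at this stage the pathway is known for its part in dorsal neural tube, neural crest, heart, limb and tail development.

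RefSeq promoter windows of build GRCm38.p6, the same assembly as mm10, were found for 5 of the 10 genes (Bmp4, Smad6, Id3, Msx1 and Msx2). The 250 bases before the annotated start are printed below for Bmp4, which was higher in the mutant in both regions, for Smad6, which was called higher in the posterior pieces, and for Msx1, which passed for neither genotype difference but was higher in posterior than anterior pieces. Each reads 5′ to 3′ on the gene's own strand, which is the minus strand for all of them, and capitals mark the GC box GGGCGG and the box CCAAT on either strand.

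Bmp4: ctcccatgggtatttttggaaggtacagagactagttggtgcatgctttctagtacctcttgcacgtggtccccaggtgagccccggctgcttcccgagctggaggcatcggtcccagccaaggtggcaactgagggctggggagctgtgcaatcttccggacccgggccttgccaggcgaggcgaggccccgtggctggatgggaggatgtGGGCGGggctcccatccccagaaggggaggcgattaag
Smad6: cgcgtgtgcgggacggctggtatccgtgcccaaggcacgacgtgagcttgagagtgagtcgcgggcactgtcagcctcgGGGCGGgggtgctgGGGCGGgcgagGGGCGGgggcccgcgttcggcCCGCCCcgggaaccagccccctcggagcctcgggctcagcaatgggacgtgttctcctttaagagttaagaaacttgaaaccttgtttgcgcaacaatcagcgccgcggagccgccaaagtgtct
Msx1: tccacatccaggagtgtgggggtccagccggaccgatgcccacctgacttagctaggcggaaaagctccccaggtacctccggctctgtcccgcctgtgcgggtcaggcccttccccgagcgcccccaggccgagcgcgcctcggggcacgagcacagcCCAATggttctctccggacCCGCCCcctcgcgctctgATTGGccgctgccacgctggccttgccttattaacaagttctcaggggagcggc

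The Bmp4 window lies at chr14:46390670-46390919, the Smad6 window at chr9:64022060-64022309 and the Msx1 window at chr5:37824586-37824835. The Id3 and Msx2 windows lie inside the gene spans given below, since their RefSeq starts lie within those spans. All 5 matched genes held at least 1 GC box within these 250 bases. There were 4 in Smad6, 2 overlapping ones in Id3 and 1 each in Bmp4, Msx1 and Msx2, and 32.7% of all 32851 windows held one. The G and C content of the 5 windows was 61.6% to 68%, against a median of 52.4% over all windows. CCAAT was found in Msx1, 2 times, and in Msx2, 1 time (33.8% of all windows). The motif TCAAGGTCA, an extended site of the kind that Nr6a1 binds, the shorter AGGTCA and the Smad motif GGCGCC were in none of the 5 windows, against 0.387%, 14% and 9.59% of all windows. CAGAC, another Smad motif, was found in Id3 only among the 5, 2 times (42.2% of all windows). Motifs were searched on both strands, and a match or its lack in these windows says nothing on whether a factor binds.

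Of the 3 ligand genes, Bmp4 was higher in the mutant in both regions, by about 2-fold, and no difference was detected for Bmp2 or Bmp7. Bmp4 (ENSMUSG00000021835; mm10 chromosome 14, 46383520 to 46390669, minus strand) encodes a ligand made in ventral and posterior mesoderm, surface ectoderm and the arches. In posterior pieces it stood at 119 TPM in both mutant libraries, against 59.3 and 63.6 TPM in the wild-type libraries. In anterior pieces it stood at 52.2 and 52.4 TPM in the mutant, against 20.8 and 24.5 TPM in the wild type. The groups did not overlap in either region, and the mutant libraries were close to each other. The ratio of mean TPM was 1.93 in posterior and 2.31 in anterior pieces. The difference of log2(TPM + 1), a scale that understates the change of low genes, was 0.94 ± 0.10 in posterior pieces (standard error; adjusted p = 0.0012) and 1.18 ± 0.10 in anterior pieces (adjusted p = 0.00024). Both calls were kept under every alternative run, with adjusted p of at most 0.043 and 0.016. The difference between the anterior and the posterior effect was 0.24 ± 0.14 and did not pass (adjusted p = 0.55). Libraries did not record strand, and 2 genes on the opposite strand overlap Bmp4 (Gm15217 and Gm15222), but neither was above 2.73 TPM in any library.

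Bmp2 (ENSMUSG00000027358; chromosome 2, 133552159 to 133562885, plus strand) encodes a close relative of Bmp4. It averaged 18.0 ± 3.5 TPM in mutant and 20.9 ± 0.73 TPM in wild-type posterior pieces, and 13.3 ± 0.49 TPM in mutant and 14.9 ± 2.7 TPM in wild-type anterior pieces. Bmp7 (ENSMUSG00000008999; chromosome 2, 172868012 to 172940321, minus strand) encodes a ligand of another branch of the family. It averaged 36.5 ± 7.2 TPM in mutant and 38.6 ± 1.1 TPM in wild-type posterior pieces, and 44.1 ± 5.7 TPM in mutant and 43.1 ± 4.6 TPM in wild-type anterior pieces. Mutant and wild-type libraries overlapped for both genes in both regions (adjusted p = 0.42 to 0.91). Of the summed TPM of these 3 ligand genes, Bmp4 made up 65.7% and 71.7% in the mutant posterior libraries, against 50.4% and 51.1% in the wild-type ones. In anterior libraries its part was 49.6% and 45.9% in the mutant, against 26.8% and 29.2% in the wild type.

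**Figure D1:**
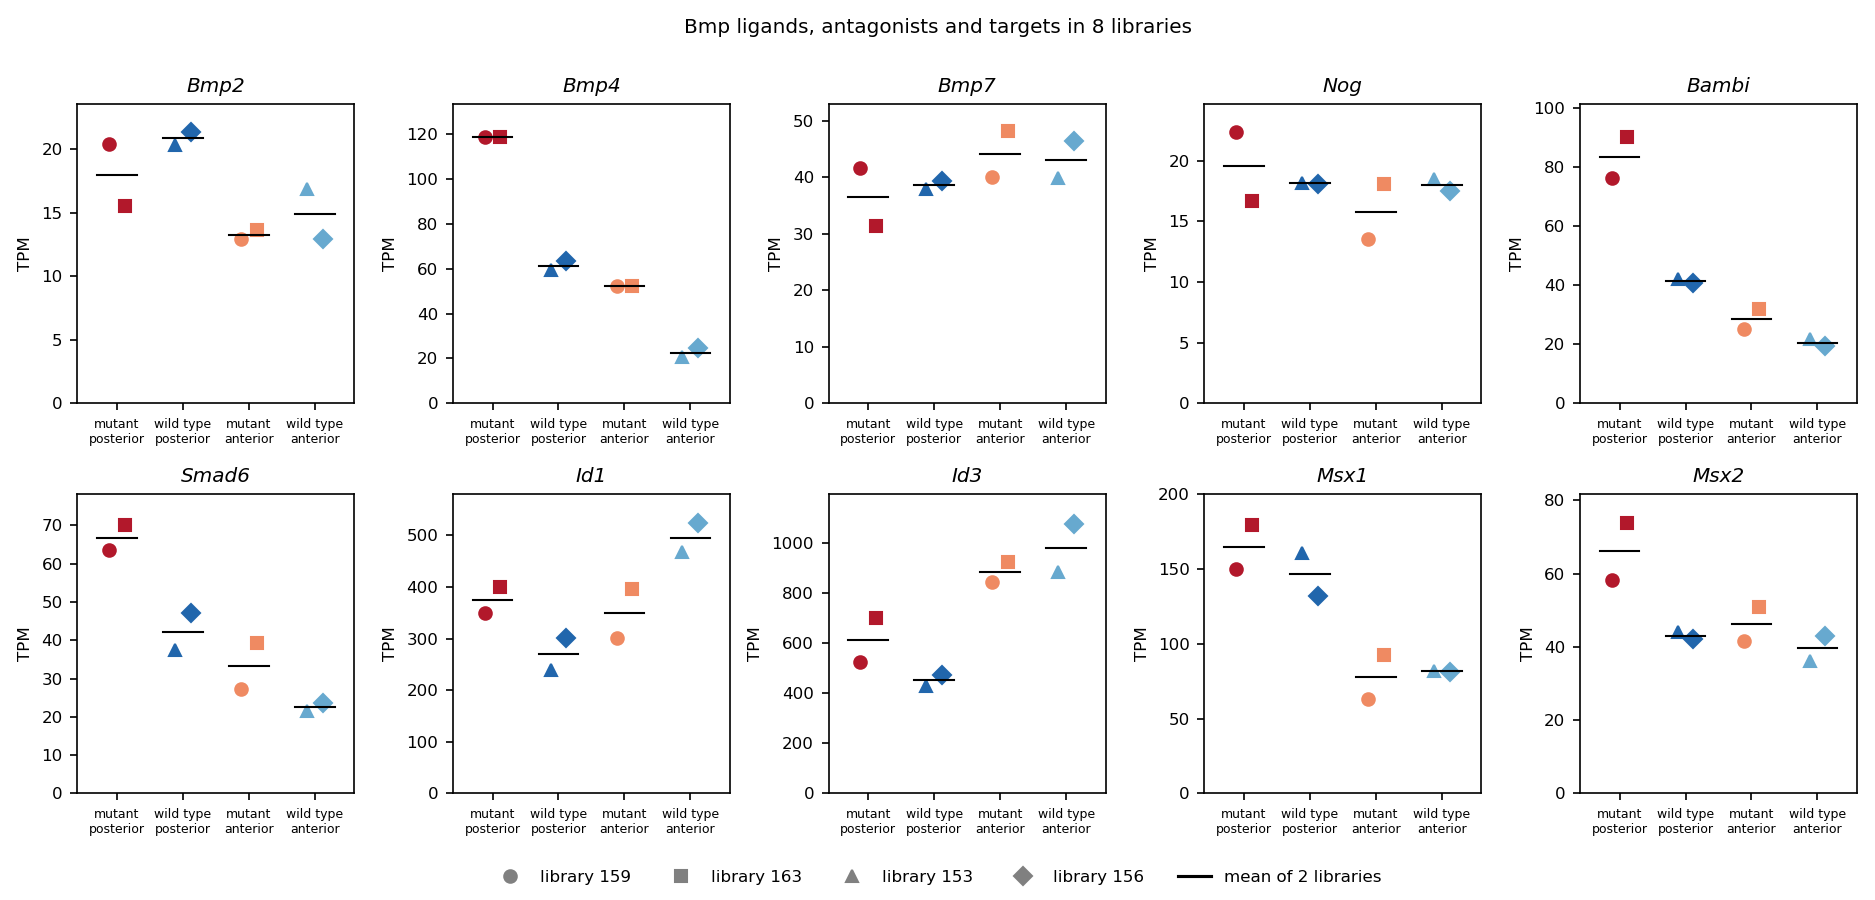
TPM of each of the 10 genes (vertical axes, from 0) in the 8 libraries, by group along the horizontal axis; symbols are libraries and bars are means of 2 libraries. Bmp4 and Bambi fall into 4 separate steps, highest in mutant posterior pieces and lowest in wild-type anterior pieces, while neighbouring groups of Bmp2 and Nog overlap.

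Of the 3 antagonist genes, Bambi and Smad6 were higher in the mutant posterior pieces and Nog was not. Bambi (ENSMUSG00000024232) was at 76.5 and 90.4 TPM in the mutant posterior libraries, against 42.3 and 40.6 TPM in the wild type, a ratio of 2.01 (0.99 ± 0.14, adjusted p = 0.0034). Anterior levels were 25.2 and 32.0 TPM in the mutant, against 21.8 and 19.3 TPM in the wild type, a ratio of 1.39 (0.45 ± 0.14, adjusted p = 0.046). The groups did not overlap in either region. The posterior call was kept without any single library, whereas the anterior call depended on 5 single libraries. It was lost when mutant anterior 163 (adjusted p = 0.25), wild-type anterior 153 or 156 (0.099 and 0.23) or wild-type posterior 153 or 156 (0.072 and 0.071) was left out, with no filter (0.11) and in a fit of the 2 groups alone (0.060). The difference between the anterior and posterior effects was -0.54 ± 0.19, which did not pass (adjusted p = 0.29).

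Smad6 (ENSMUSG00000036867; chromosome 9, 63953076 to 64022059, minus strand) was at 63.5 and 70.0 TPM in the mutant posterior libraries, against 37.5 and 47.1 TPM in the wild type, a ratio of 1.58 (0.65 ± 0.17, adjusted p = 0.045). In anterior pieces it was at 27.3 and 39.2 TPM in the mutant, against 21.4 and 23.5 TPM in the wild type, a ratio of 1.48 (0.53 ± 0.17, adjusted p = 0.059). All mutant libraries lay above all wild-type libraries of their region, and the posterior call sat near the threshold. It was lost without any 1 of 6 libraries, namely mutant posterior 159 or 163 (adjusted p = 0.066 and 0.13), wild-type posterior 153 or 156 (0.26 and 0.082) and wild-type anterior 153 or 156 (0.059 in each). It was also lost under median-of-ratios scaling (0.073), quantile normalization (0.064), a pseudocount of 0.1 (0.051) and no filter on low values (0.14). The anterior difference passed without mutant anterior library 159 (0.019), with the filter at 5 TPM (0.036) and after rescaling without globin genes, mitochondrial genes and Mir6236 (0.041).

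Nog (ENSMUSG00000048616; chromosome 11, 89300638 to 89302332, minus strand) was at 22.4 and 16.7 TPM in the mutant posterior libraries, against 18.2 and 18.1 TPM in the wild type. Anterior levels were 13.5 and 18.0 TPM in the mutant, against 18.5 and 17.5 TPM in the wild type. The libraries overlapped in both regions, and neither difference passed (0.09 ± 0.17, adjusted p = 0.78, and -0.19 ± 0.17, adjusted p = 0.44). The ratio of Bmp4 to Nog in TPM was 5.30 and 7.12 in the mutant posterior libraries, against 3.26 and 3.51 in the wild type, and 3.86 and 2.91 in the mutant anterior libraries, against 1.12 and 1.39 in the wild type. These ratios are a description of the levels above, with no test of their own.

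The calls of the 4 target genes differed, but in posterior pieces all 4 differences were above 0 (Id1 0.48, Id3 0.43, Msx1 0.17 and Msx2 0.60). In anterior pieces they were -0.52, -0.14, -0.09 and 0.22 in the same order. No test compared the target genes with each other. Msx2 was higher in mutant posterior pieces, Id1 was lower in mutant anterior pieces, and no difference was detected for Id3 or Msx1 in either region. Id1 (ENSMUSG00000042745; chromosome 2, 152736251 to 152737410, plus strand) encodes an inhibitor of bHLH transcription factors. It was at 349 and 400.1 TPM in the mutant posterior libraries, against 239 and 300.5 TPM in the wild type, a ratio of 1.39 (0.48 ± 0.16, adjusted p = 0.092). In anterior pieces it was at 301 and 397 TPM in the mutant, against 467 and 523 TPM in the wild type, a ratio of 0.704 (-0.52 ± 0.16, adjusted p = 0.048). Mutant libraries thus lay above all wild-type libraries in posterior pieces and below all of them in anterior pieces. The difference between the anterior and posterior effects was -0.99 ± 0.23, with an unadjusted p of 0.0019 and an adjusted p of 0.096 in limma. The anterior call did not stand when mutant anterior 159 (adjusted p = 0.23), wild-type anterior 153 or 156 (0.10 and 0.21) or wild-type posterior 153 or 156 (0.055 and 0.054) was left out, with no filter (0.14), or under all 3 rescalings of TPM (0.057, 0.057 and 0.17).

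Id3 (ENSMUSG00000007872; chromosome 4, 136143497 to 136145755, plus strand), a relative of Id1 with the same kind of action, had the highest level of the 10 genes. It was at 525 and 701 TPM in the mutant posterior libraries, against 429 and 473 TPM in the wild type (0.43 ± 0.15, adjusted p = 0.11). Anterior levels were 843 and 925 TPM in the mutant, against 882 and 1075 TPM in the wild type (-0.14 ± 0.15, adjusted p = 0.55). The posterior groups did not overlap and the anterior ones did. The posterior difference passed without mutant posterior library 159 (adjusted p = 0.031).

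Msx1 and Msx2 encode homeodomain proteins of the arches, limb buds and dorsal neural tube. Msx1 (ENSMUSG00000048450; chromosome 5, 37820485 to 37824583, minus strand) was at 150.3 and 179.6 TPM in the mutant posterior libraries, against 161 and 132 TPM in the wild type (0.17 ± 0.18, adjusted p = 0.58). In anterior pieces it was at 63.3 and 92.8 TPM in the mutant, against 81.8 and 81.3 TPM in the wild type (-0.09 ± 0.18, adjusted p = 0.76). The groups overlapped in both regions.

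Msx2 (ENSMUSG00000021469; chromosome 13, 53466884 to 53473074, minus strand) was at 58.3 and 73.8 TPM in the mutant posterior libraries, against 43.9 and 42.1 TPM in the wild type, a ratio of 1.54 (0.60 ± 0.15, adjusted p = 0.036). Anterior levels were 41.6 and 51.0 TPM in the mutant, against 36.2 and 43.1 TPM in the wild type, a ratio of 1.17 (0.22 ± 0.15, adjusted p = 0.33). The posterior groups did not overlap and the anterior ones did. The posterior call was lost without mutant posterior library 163 (adjusted p = 0.13) or either wild-type posterior library (0.15 in each), and with no filter (0.11).

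**Figure D2:**
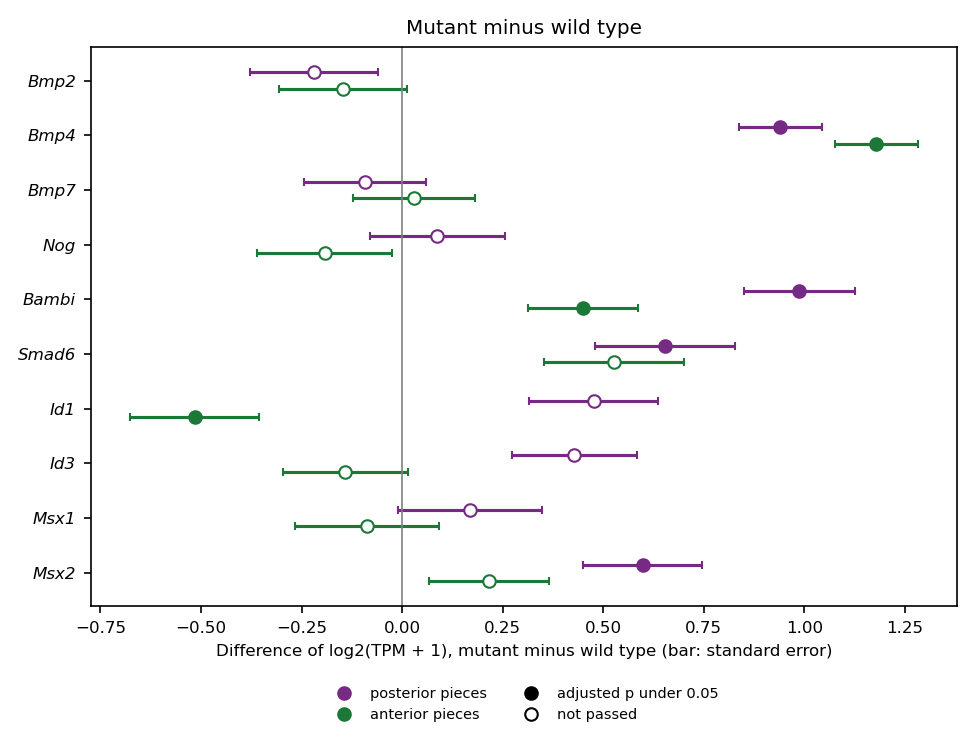
Difference of log2(TPM + 1), mutant minus wild type (horizontal axis), for the 10 genes, with bars of 1 standard error; filled points passed at an adjusted p of 0.05. Bmp4 stands at 0.94 in posterior and 1.18 in anterior pieces, and Id1 at 0.48 and -0.52.

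Across the 10 genes, 4 rose and 0 fell in the mutant posterior pieces, where 11.5% of the 16699 tested genes passed (8.56% higher and 2.93% lower). The balance of all posterior calls depended on scaling, with 74.5% of calls higher on TPM as deposited and 54.3% under median-of-ratios scaling. In the anterior pieces 2 of the 10 rose and 1 fell, where 23.6% of all tested genes passed (13.3% higher and 10.2% lower), so the anterior count was close to that of all genes. The median difference over the 10 genes was 0.45 in posterior pieces, against 0.05 over all tested genes, and -0.03 in anterior pieces, against 0.02. For the difference between anterior and posterior effects 0 of the 10 passed in limma (1.01% of all genes did), and 3 of the 10 had an unadjusted p under 0.05 (12.6% of all genes did). The posterior count fell most when mutant posterior 163, wild-type posterior 153 or wild-type posterior 156 was left out. The anterior count fell most when any wild-type library (anterior 153 or 156, posterior 153 or 156) was left out. In each of these cases the count over all tested genes fell too. Mutant and wild-type libraries did not overlap for 6 of the 10 genes in posterior pieces, against 53.2% of all tested genes, and for 4 of 10 in anterior pieces, against 67.3%.

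Most markers of primitive erythroid cells and neural crest differed with genotype, and few of those of endothelium did. Of all tested genes, 8.56% were called higher and 2.93% lower in posterior pieces, and 13.3% higher and 10.2% lower in anterior pieces. In bulk pieces fewer cells of a type and less RNA per cell cannot be told apart. The 6 endothelial markers, a cell type that uses Bmp signals and Smad6, summed to 299.6 to 318 TPM in mutant and 230.4 to 231 TPM in wild-type posterior pieces. Their anterior sums overlapped, at 158 to 208 TPM in mutant and 143 to 183 TPM in wild-type pieces. In each region 1 of 6 was called higher, against 8.56% of all tested genes in posterior and 13.3% in anterior pieces. The 5 primitive erythroid markers summed to 22041 to 43780 TPM in mutant and 6303 to 7540 TPM in wild-type posterior pieces, with 4 of 5 higher, and to 25343 to 43608 TPM in mutant and 4202 to 9843 TPM in wild-type anterior pieces, with 5 of 5 higher. The 5 neural crest markers summed to 22.5 to 25.3 TPM in mutant and 62.7 to 73.5 TPM in wild-type posterior pieces, with 5 of 5 lower, and to 119 to 132 TPM in mutant and 218 to 236 TPM in wild-type anterior pieces, with 4 of 5 lower. Their part in the Bmp differences was not tested.

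The lists of heart, visceral endoderm, surface ectoderm and roof plate markers held at most 1 call in each region. The shares of all tested genes given above for each direction apply to these lists too. The 6 heart muscle markers summed to 269 to 2173 TPM in mutant and 289 to 876 TPM in wild-type posterior pieces, and to 96.5 to 279 TPM in mutant and 20.4 to 107 TPM in wild-type anterior pieces, with no call for genotype. The 6 visceral endoderm markers summed to 212 to 1003 TPM in mutant and 1941 to 2350 TPM in wild-type posterior pieces, with 1 of 6 lower, and to 11.2 to 17.7 TPM in mutant and 16.6 to 134 TPM in wild-type anterior pieces, with no call. The 5 surface ectoderm markers summed to 886.5 to 1147 TPM in mutant and 1075 to 1078 TPM in wild-type posterior pieces, with no call, and to 598.5 to 720.4 TPM in mutant and 622 to 691 TPM in wild-type anterior pieces, with 1 of 5 higher. The 4 roof plate markers summed to 52.7 to 64.8 TPM in mutant and 60.7 to 62.2 TPM in wild-type posterior pieces, and to 54.8 to 79.7 TPM in mutant and 78.7 to 86.7 TPM in wild-type anterior pieces, with 1 of 4 lower in each region. Among the trunk and tail bud markers 1 was higher and 3 were lower in mutant posterior pieces and 1 was higher in mutant anterior pieces, and among the anterior neural markers 1 was lower in mutant posterior pieces and 3 were lower in mutant anterior pieces.

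The rest of the pathway was examined in a list of 59 further genes, of which 54 passed the filter of at least 1 TPM in at least 2 libraries. In posterior pieces 7 rose and 1 fell in the mutant, and in anterior pieces 12 rose and 2 fell, against 11.5% and 23.6% of all genes called in either direction. The median difference was 0.12 in posterior and 0.14 in anterior pieces. Genes named below beyond the smallest p-values and largest differences were chosen after their values were seen.

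Of 7 tested ligand genes, Bmp5 and Gdf6 rose in the mutant posterior pieces and Bmp5 in the anterior ones. Over all tested genes 11.5% were called in posterior and 23.6% in anterior pieces. Bmp5, a ligand close to Bmp7, averaged 21.3 ± 0.91 TPM in mutant and 15.4 ± 0.76 TPM in wild-type posterior pieces (0.44 ± 0.12, adjusted p = 0.049), and 25.9 ± 3.3 TPM in mutant and 17.4 ± 1.2 TPM in wild-type anterior pieces (0.54 ± 0.12, adjusted p = 0.013). Gdf6, a ligand of dorsal ectoderm and neural tube, averaged 9.24 ± 0.73 TPM in mutant and 5.33 ± 0.37 TPM in wild-type posterior pieces (0.69 ± 0.13, adjusted p = 0.014). In anterior pieces Gdf6 averaged 3.58 ± 0.045 TPM in mutant and 4.45 ± 0.19 TPM in wild type (adjusted p = 0.21).

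Of 9 receptor and co-receptor genes, Acvr2a passed in both regions, and Bmpr1b and Rgma in the anterior pieces. Of all tested genes 11.5% passed in posterior and 23.6% in anterior pieces. For the difference between anterior and posterior effects 0 of the 9 passed in limma (1.01% of all genes did), and 0 of the 9 had an unadjusted p under 0.05 (12.6% of all genes did). Acvr2a, a type II receptor that also serves activins, averaged 38.1 ± 2.3 TPM in mutant and 27.9 ± 1.0 TPM in wild-type posterior pieces (0.43 ± 0.10, adjusted p = 0.023), and 43.3 ± 1.3 TPM in mutant and 32.6 ± 0.41 TPM in wild-type anterior pieces (0.40 ± 0.10, adjusted p = 0.018). Bmpr1b, a type I receptor, averaged 10.1 ± 0.86 TPM in mutant and 5.41 ± 0.84 TPM in wild-type anterior pieces (0.80 ± 0.19, adjusted p = 0.016). Bmpr1a, the more abundant type I receptor gene, averaged 130 ± 3.9 TPM in mutant and 128 ± 12 TPM in wild-type posterior pieces, and did not pass in either region. None of the 4 Smads that carry the signal (Smad1, Smad4, Smad5 and Smad9) passed in limma for either genotype difference. Mutant and wild-type libraries did not overlap for 1 of the 4 in each region, against 53.2% of all tested genes in posterior and 67.3% in anterior pieces.

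Of 13 tested genes of extracellular antagonists, 2 rose and 1 fell in the mutant posterior pieces, and 3 rose in the anterior ones. Over all tested genes 11.5% and 23.6% were called, so the anterior count was close to that of all genes. Cer1, which encodes a secreted inhibitor of Bmp and Nodal ligands, was at 1.84 and 1.38 TPM in the mutant posterior libraries, against 13.9 and 14.6 TPM in the wild type (-2.55 ± 0.17, adjusted p = 0.00012). Nbl1, a secreted antagonist of the DAN family, averaged 9.15 ± 0.12 TPM in mutant and 5.63 ± 0.54 TPM in wild-type posterior pieces (0.62 ± 0.17, adjusted p = 0.046), and 17.7 ± 4.2 TPM in mutant and 7.63 ± 0.56 TPM in wild-type anterior pieces (1.10 ± 0.17, adjusted p = 0.0025). Chrdl1, a relative of chordin, and Fst, which encodes follistatin, were the other rises of the anterior pieces. Chrd itself was at most 2.24 TPM in any library.

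Intracellular inhibitors held 1 rise of 6 in the mutant posterior pieces and 3 rises and 1 fall of 6 in the anterior ones. The shares of all tested genes called were 11.5% and 23.6%. Smurf1, a ubiquitin ligase that acts on Bmp Smads, averaged 42.5 ± 3.6 TPM in mutant and 31.5 ± 1.1 TPM in wild-type posterior pieces (0.42 ± 0.11, adjusted p = 0.045). In anterior pieces Smurf1 averaged 39.5 ± 4.2 TPM in mutant and 28.2 ± 0.64 TPM in wild type (0.47 ± 0.11, adjusted p = 0.017). Tob1, which binds and restrains Smads, averaged 37.0 ± 4.4 TPM in mutant and 23.1 ± 0.34 TPM in wild-type anterior pieces (0.65 ± 0.11, adjusted p = 0.0047). The inhibitory Smad gene Smad7 also rose in the anterior pieces, while Skil, a Smad co-repressor gene, fell. Of 4 tested proteases of ligands and of chordin, Bmp1 fell in the anterior pieces and none passed in the posterior ones in limma. Those shares of all tested genes apply here too. Mutant and wild-type posterior libraries did not overlap for 3 of the 4, against 53.2% of all tested genes.

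Among 11 further target genes, Tbx3 rose in the mutant posterior pieces and Id4 and Msx3 in the anterior ones. Over all tested genes 11.5% and 23.6% were called, so neither count of targets was above that of all genes. Tbx3, a T-box factor of limb and heart, averaged 33.0 ± 3.1 TPM in mutant and 17.7 ± 0.33 TPM in wild-type posterior pieces (0.86 ± 0.23, adjusted p = 0.044). Id4 averaged 19.2 ± 1.9 TPM in mutant and 8.04 ± 0.90 TPM in wild-type anterior pieces (1.16 ± 0.13, adjusted p = 0.00076). Msx3, a homeobox gene of the mouse dorsal neural tube, was at 61.6 and 99.3 TPM in the mutant anterior libraries, against 33.1 and 32.9 TPM in the wild type (1.22 ± 0.25, adjusted p = 0.0088). The posterior count of 8 fell when mutant posterior 163, wild-type anterior 153 or 156, or either wild-type posterior library was left out. The anterior count of 14 fell when mutant anterior 163 or wild-type anterior 153 or 156 was left out. In each of these cases the count over all tested genes fell too. Among the genes with the smallest p-values and largest differences, the posterior call of Cer1 and the anterior calls of Id4, Nbl1 and Tob1 were kept without any 1 library. The posterior calls of Acvr2a, Gdf6 and Tbx3 and the anterior calls of Bmpr1b and Msx3 were not. When either wild-type posterior library was left out, the posterior calls of Bmp5, Nbl1 and Smurf1 were lost as well, since Cer1 alone was still called.

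**Figure D3:**
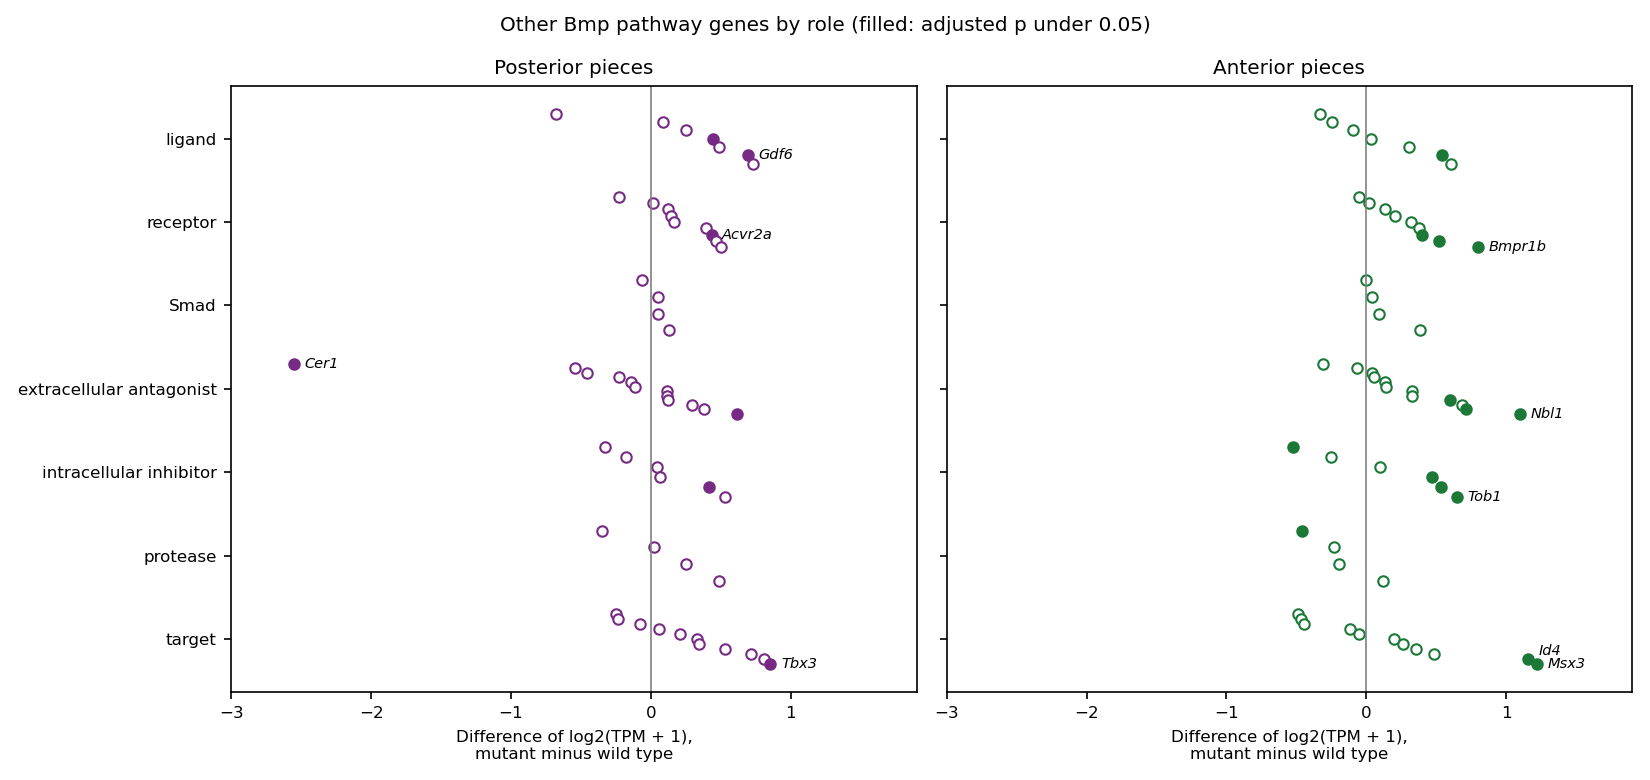
Difference of log2(TPM + 1), mutant minus wild type (horizontal axes), for tested genes of the wider pathway list, by role (vertical axis), in posterior (left) and anterior (right) pieces; filled points passed at an adjusted p of 0.05. Cer1 lies far to the left in posterior pieces, at -2.55, and Id4 and Msx3 lie furthest to the right in anterior pieces, at 1.16 and 1.22.

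The region comparison asked how the same genes differed between the pieces of one genotype. Bmp4, Bambi, Smad6 and Msx1 were higher in posterior than anterior pieces in both genotypes, Id3 was lower in both, and Id1 was lower in the wild type, with no difference detected in the mutant. Of the 10 genes, 4 were higher and 1 lower in the mutant, where 16.1% of all tested genes passed (8.01% higher and 8.1% lower), and 4 were higher and 2 lower in the wild type, where 14.5% did (7.86% higher and 6.65% lower). Posterior and anterior libraries did not overlap for 7 of the 10 genes in the mutant, against 52.1% of all tested genes, and for 8 of 10 in the wild type, against 63.1%. In mutant pieces Bmp4 averaged 119 ± 0.017 TPM in posterior and 52.3 ± 0.16 TPM in anterior pieces (1.17 ± 0.10, adjusted p = 1e-04). In wild-type pieces Bmp4 averaged 61.4 ± 3.0 TPM in posterior and 22.6 ± 2.6 TPM in anterior pieces (1.41 ± 0.10, adjusted p = 3.8e-05). The wild-type posterior libraries thus lay just above the mutant anterior ones.

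Bambi differed by 1.52 ± 0.14 between posterior and anterior mutant pieces (83.4 ± 9.8 and 28.6 ± 4.8 TPM, adjusted p = 0.00013) and by 0.98 ± 0.14 between posterior and anterior wild-type pieces (41.5 ± 1.1 and 20.5 ± 1.8 TPM, adjusted p = 0.0017). Smad6 differed by 1.00 ± 0.17 in the mutant (adjusted p = 0.0047) and 0.88 ± 0.17 in the wild type (adjusted p = 0.010). Msx1 differed by 1.09 ± 0.18 in the mutant (165 ± 21 TPM in posterior and 78.1 ± 21 TPM in anterior pieces, adjusted p = 0.0036) and by 0.83 ± 0.18 in the wild type (147 ± 20 and 81.5 ± 0.36 TPM, adjusted p = 0.015). The wild-type call of Smad6 was lost when wild-type anterior 153 (adjusted p = 0.056) or wild-type posterior 156 (0.10) was left out. That of Msx1 was lost when wild-type anterior 153 or 156 (0.057 and 0.068) or wild-type posterior 153 or 156 (0.11 and 0.051) was.

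Id1 averaged 374 ± 36 TPM in posterior and 349 ± 68 TPM in anterior mutant pieces (0.11 ± 0.16, adjusted p = 0.72), and 269.8 ± 43 TPM in posterior and 495 ± 40 TPM in anterior wild-type pieces (-0.88 ± 0.16, adjusted p = 0.0067). The contrast between these region effects is the same quantity as the difference between genotype effects given above (adjusted p = 0.096). Id3 averaged 613 ± 125 TPM in posterior and 884 ± 58 TPM in anterior mutant pieces (-0.54 ± 0.15, adjusted p = 0.046), and 451 ± 31 TPM in posterior and 979 ± 136 TPM in anterior wild-type pieces (-1.11 ± 0.15, adjusted p = 0.0017). The mutant call of Id3 was lost without any 1 of 5 libraries, namely mutant anterior 159 or 163 (adjusted p = 0.10 and 0.20), mutant posterior 159 (0.16) and wild-type posterior 153 or 156 (0.083 and 0.082). It was also lost with no filter (0.15), under median-of-ratios scaling (0.078) and in a fit of the 2 groups alone (0.11). The wild-type call of Id1 was lost when wild-type posterior 153 (0.069) or wild-type anterior 156 (0.0503) was left out.

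Msx2 differed by 0.50 ± 0.15 between posterior and anterior mutant pieces (adjusted p = 0.053) and by 0.12 ± 0.15 in the wild type (adjusted p = 0.63). The mutant difference passed without mutant posterior library 159 (adjusted p = 0.019) with the filter at 5 TPM (0.036) and under all 3 rescalings (0.037, 0.044 and 0.034). Bmp2 did not pass in the mutant (0.40 ± 0.16, adjusted p = 0.14) or the wild type (0.47 ± 0.16, adjusted p = 0.087), where it did without mutant posterior library 159 or 163 (0.045 in each). Bmp7 and Nog did not pass in either genotype (adjusted p = 0.29 to 0.98).

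**Figure D4:**
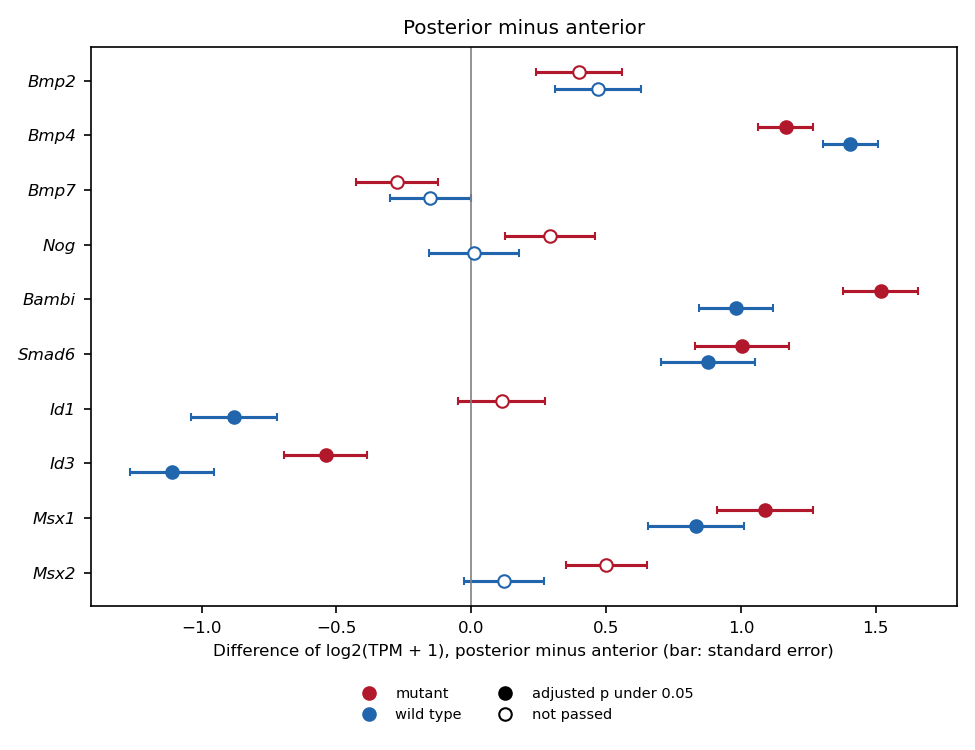
Difference of log2(TPM + 1), posterior minus anterior (horizontal axis), for the 10 genes in mutant and wild-type pieces, with bars of 1 standard error; filled points passed at an adjusted p of 0.05. Bmp4, Bambi, Smad6 and Msx1 lie right of 0 in both genotypes, and Id3 left of 0 in both.

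The order of group means was the same for Bmp4 and Bambi: mutant posterior, wild-type posterior, mutant anterior and wild-type anterior, with no overlap between neighbours. Smad6 had that order too, but its wild-type posterior and mutant anterior libraries overlapped. For Id1 the wild-type anterior pieces were highest and the wild-type posterior pieces lowest, and the mutant groups between them overlapped each other. For Bmp2 and Nog every neighbour in the order overlapped.

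In the wider list 22 genes were higher and 9 lower in posterior than anterior mutant pieces, and 17 were higher and 5 lower in the wild type, against 16.1% and 14.5% of all tested genes called in either direction. For 6 of the 54 genes (among them Bmp3, Bmp10 and Cer1) the filter was passed through posterior libraries only, which favours a region difference. The counts include those of them that were called. Hand1 and Hand2, transcription factor genes of heart and lateral mesoderm, were higher in posterior pieces in both genotypes. Hand1 averaged 169 ± 13 TPM in posterior and 8.59 ± 1.9 TPM in anterior mutant pieces (4.16 ± 0.18, adjusted p = 1.1e-06), and 132 ± 8.1 TPM in posterior and 9.41 ± 2.4 TPM in anterior wild-type pieces (3.70 ± 0.18, adjusted p = 2.8e-06). Hand2 averaged 66.8 ± 7.7 TPM in posterior and 6.93 ± 0.85 TPM in anterior mutant pieces (3.09 ± 0.29, adjusted p = 0.00014). Chrdl1 was lower in posterior pieces, at 5.13 ± 1.3 TPM in posterior and 37.1 ± 4.2 TPM in anterior mutant pieces (-2.65 ± 0.16, adjusted p = 1.2e-05).

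Sost, a secreted antagonist gene, was at 16.0 and 14.0 TPM in the posterior wild-type libraries, against 3.41 and 2.98 TPM in the anterior ones (1.93 ± 0.17, adjusted p = 0.00013). Cer1 averaged 14.3 ± 0.52 TPM in posterior and 0.546 ± 0.0082 TPM in anterior wild-type pieces. In mutant pieces Cer1 averaged 1.61 ± 0.32 TPM in posterior and 0.245 ± 0.019 TPM in anterior pieces. These Cer1 levels are a description, with no test, since the gene passed the filter through its posterior libraries. Tbx3 averaged 33.0 ± 3.1 TPM in posterior and 7.05 ± 2.7 TPM in anterior mutant pieces (2.12 ± 0.23, adjusted p = 0.00033). The wild-type count of 22 fell when wild-type anterior 156 or wild-type posterior 153 or 156 was left out, and so did the count over all tested genes.

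The genes whose 8 values were most like each member were found by the smallest distance between log2(TPM + 1) values centred on their mean. For Bmp4 this was Epb41l3, at a distance of 0.417, where a flat profile would lie at 2.37. For Bambi it was Asb4 (0.367, flat profile 2.10), and for Smad6 it was Lgals9 (0.350, flat profile 1.64). For the other members they were Ccr7 for Bmp2, Gm6869 for Bmp7, Zmiz1 for Nog, Lrrc73 for Id1, Mdfi for Id3, Irf1 for Msx1 and Bcl6b for Msx2, at 0.158 to 0.335. Flat profiles lay closer to these members, at 0.485 for Bmp7 to 1.45 for Msx1, so their smaller distances do not mark closer matches. No member was the nearest gene of another.

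All 10 genes were well above the filter, with 12.9 TPM or more in every library. They rested on 228 reads or more, the lowest being Nog in 1 library, and on up to 18446 reads for Id3.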

How the data were processed

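Per the labels' protocols, poly-A libraries that do not record strand were made with a TruSeq kit. The submitters' processing notes name CASAVA 1.8.2, STAR and build mm10, but neither the annotation nor the counter (not given in the sources used). For 8 libraries, TPM values were deposited by the authors. Names, positions and exon-union lengths came from GENCODE release M21, which matched 55240 of 55421 identifiers. Depth was taken from TPM times length, since 98.8% to 98.89% of values above 0 came out as whole reads with a tolerance of 0.01 read.

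The filter of 1 TPM or more in 2 or more libraries left 16699 genes. Values were log2 of TPM plus a pseudocount of 1, and limma 3.58.1 (R 4.3.3) estimated a mean for each of 4 groups, its prior spread following the level (4 residual, 4.68 prior degrees of freedom). Two-sided p-values were adjusted by Benjamini-Hochberg over all tested genes, with 0.05 as the threshold. The fit was tested on simulated reads with a fixed spread and no differences between embryos, so that test does not gauge the calls made here. With 2 libraries a group, an exact permutation test of 1 gene cannot go below p = 0.333. Nearness of profiles was measured over the 16699 genes. The members and lists were chosen with earlier results of these data known. Named besides the members were, from the wider list, up to 4 genes per contrast with the smallest p and up to 4 with the largest genotype difference among those that passed. Further genes of that list, such as Bmp5 and Smurf1, were named after their values were seen. The values of 1 gene of the wider list are not reported here, though counts over the list include it. Alternatives were pseudocounts of 0.1 and 0.5, no filter or 5 TPM, median-of-ratios scaling, quantile normalization, rescaling without globin genes, mitochondrial genes and Mir6236, fits of 2 groups alone, a block by library number, and leaving out libraries.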

Additional observations from a re-analysis of the deposited data

Results flagged for a closer look

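Cer1 drew attention because its genotype effect was called different between the regions. It fell by 2.55 on the log2(TPM + 1) scale in mutant posterior pieces, and its difference in anterior pieces was -0.31 (limma, Benjamini-Hochberg adjusted p = 0.21). The anterior minus the posterior effect was 2.24 ± 0.24 (limma, adjusted p = 0.0058). With anterior values this low, that test cannot decide whether the genotype effect differed between the regions. That call did not stand when wild-type posterior 153 (adjusted p = 0.061) or 156 (0.066) was left out, nor with a pseudocount of 0.1 (0.055). Cer1 was at 0.231 and 0.258 TPM in the mutant anterior libraries and at 0.552 and 0.540 TPM in the wild-type ones, all under the filter value, so the gene passed the filter through its posterior libraries, and a pseudocount of 1 understates any anterior change. The 6 visceral endoderm markers, a cell type known to express Cer1 earlier in development, summed to 212 and 1003 TPM in the mutant posterior libraries and to 1941 and 2350 TPM in the wild-type ones, and their part in the Cer1 difference was not tested. The gene belongs to the wider list, not to the 10 genes.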

How the results depend on the processing

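Across the alternatives, Bmp4 kept its direction and its call in both genotype and both region comparisons. Of all values of called members under alternatives, 292 kept their call and 61 lost it. Of values of uncalled members, 569 stayed uncalled with the same sign, 20 passed and 28 changed sign without passing. The cause of each change was not tested. Counts over all tested genes also changed with the libraries left out.

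With no filter, the region calls of Smad6 (adjusted p = 0.053) and Msx1 (0.071) in the wild type were lost. With no filter on low values, more genes were tested, and the posterior genotype count was 2 of the 10 genes and 3 of the wider list, and the anterior count 1 and 9. Without both libraries numbered 153 the counts were 1 and 1 in posterior pieces and 1 and 2 in anterior pieces, and 1 and 6 for region in the wild type. In the wider list, 0 genes differed between anterior and posterior effects with a pseudocount of 0.1 or without both libraries numbered 153, 2 did under quantile normalization or without both libraries numbered 159, and 3 with the filter at 5 TPM.

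Leaving out 1 library at a time, 2 to 4 of the 10 genes passed for genotype in posterior pieces, 1 to 3 in anterior pieces and 0 to 0 for the difference between regions, and 4 to 5 and 4 to 7 for region in the mutant and the wild type. In the wider list the counts were 1 to 12, 4 to 15, 0 to 2, 22 to 27 and 10 to 24.

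Signs of small, uncalled differences turned. Nog was at -0.0013 in posterior pieces under quantile normalization. Without both libraries numbered 153, Bmp2 was at 0.030 and Bmp7 at -0.075 in anterior pieces, and Msx2 at -0.033 for region in the wild type. Without both libraries numbered 159, Nog was at -0.11 in posterior and 0.0028 in anterior pieces, 0.12 for their difference and -0.11 for region in the mutant, Msx1 at 0.18 in anterior pieces and Smad6 at 0.057 for the difference. Leaving out 1 library, the ranges in anterior pieces were -0.32 to 0.030 for Bmp2, -0.10 to 0.16 for Bmp7, -0.28 to 0.00089 for Id3, -0.36 to 0.18 for Msx1 and -0.39 to 0.0028 for Nog. In posterior pieces they were -0.29 to 0.10 for Bmp7 and -0.11 to 0.29 for Nog. For the difference they were -0.12 to 0.26 for Bmp2, -0.074 to 0.32 for Bmp7, -0.53 to 0.015 for Msx1 and -0.38 to 0.13 for Smad6. For region they were -0.087 to 0.31 for Id1 in the mutant, and -0.0026 to 0.24 for Msx2 and -0.026 to 0.046 for Nog in the wild type.

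Libraries of a genotype share numbers between regions, but no label says that a number marks 1 embryo. Deviations of same-numbered libraries correlated at 0.0959 for mutant and 0.0177 for wild-type libraries over 16034 autosomal genes. With a fixed replicate block 1 of the 10 genes, Id1, passed for the difference between regions (adjusted p = 0.045, limma with Benjamini-Hochberg adjustment), and 2 genes of the wider list did. Msx2 passed for region in the mutant with the fixed block (adjusted p = 0.025) and with the block as an estimated correlation (0.031), against 0.053 with no block. For the difference between regions, 4 genes of the wider list passed with the block as an estimated correlation. Genotype could not be fitted with the fixed block, since each number belongs to 1 genotype, nor could the difference be fitted from 2 groups alone.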
